A study of Mus musculus with 36 samples.

Results

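The cell cycle and DNA replication genes of the mouse liver were taken as a list of 35 genes, chosen by symbol, and each was listed on exactly 1 row of the deposited tables, out of 24066 symbols listed once. The liver RNA came from male wild-type C57BL/6JRj mice, 16 weeks of age, kept 5 per cage under 12 h of light and 12 h of dark with food and water freely available. Lights went on at Zeitgeber time 0 (ZT0). For 4 weeks one group received intermittent hypoxia (IH), in which oxygen fell to 5% and returned to 21% in 60 cycles per hour from ZT0 to ZT8 each day, and the control group received air-to-air cycles in the same way. Livers were taken from 3 mice in each condition every 4 h, the last at ZT20, for 18 libraries in each condition and 36 in total. Each library held polyadenylated RNA of 1 liver, so a smaller share of a cell type and less RNA in each of its cells cannot be told apart.

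Cells that divide first load the MCM helicase onto replication origins, which the loader CDC6 assists, and then copy DNA with the sliding clamp PCNA and with nucleotides made by ribonucleotide reductase and thymidylate synthase. Cyclins switch on the cyclin-dependent kinases (CDKs) at each stage, CDK inhibitors hold them back, and WEE1 restrains CDK1 before mitosis. Hepatocytes of the adult liver are mostly at rest, and several cell cycle genes in them, Wee1 and Cdkn1a among them, are known outputs of the circadian clock.

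In these livers most genes of mitosis averaged under 1 FPKM. Cdkn1a, Wee1 and Ccne1 had the largest ratios of highest to lowest mean over the day among the genes called rhythmic. Cdkn1a, which encodes the CDK inhibitor p21, was highest at ZT20 and lowest at ZT8, with a ratio of the means of 43.3 in control and 49.1 in IH. Wee1 had its highest mean at ZT8, 9.83 times its lowest mean in control and 15.5 times in IH. Between the conditions, Rrm2, the regulatory subunit of ribonucleotide reductase, was higher in IH over all time points by 0.42 ± 0.07 (SE) on the log2(FPKM + 1) scale (limma, adjusted p = 0.00182), and no other gene of the list passed that test. Pcna passed it at ZT4 and ZT8 together.

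Expression was given as FPKM, a fragment number scaled to transcript length and library depth, so levels can be compared between genes per length. The deposited files hold no counts. From the step that a single fragment makes in 179 genes with 1 transcript, the libraries were estimated to hold, in units of 1e6 fragments, from 49.9 to 84.3, with a median of 64.6. Summed hepatocyte markers lay between 39462 and 66077 FPKM, the highest in control ZT12 replicate 2 and the next at 56854. This sum was led by Alb, with a median of 33296 FPKM, and Apoa1, with a median of 8741 and a highest value of 24262. Replicates correlated with r between 0.949 and 0.995 across genes. The library of control ZT12 replicate 2 stood apart, with a summed FPKM of 758113 against 540095 to 579428 in the others, and Saa1, an acute-phase gene, at 20550 FPKM. Saa1 was above 10000 FPKM in 2 more libraries, control ZT16 replicate 3 at 12910 and IH ZT0 replicate 2 at 22870. In control ZT12 replicate 2 the 4 neutrophil markers in the tables summed to 210.5 FPKM against at most 14.3 elsewhere, and the 6 Kupffer cell and macrophage markers to 174.1 against at most 64.6. Of the 210.5, S100a8 made 106.3 and S100a9 97.3, while Csf3r was at most 0.893 FPKM in any library. Calls that changed without these 3 libraries are named with the gene.

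Levels differed widely among the 35 genes. Of these, 12 averaged 1 FPKM or more across all libraries, led by Cdk4 (20.8 FPKM), Pcna (18.1) and Ccnd3 (12.6). Another 16 were low, from 0.1 to under 1 FPKM, among them Mcm2 to Mcm6 and the kinase of mitosis Cdk1 (0.246). The last 7 had means under 0.1 FPKM, the limit set here for too low to measure, and were not tested. They were Cdc6, the helicase loader, Top2a, the topoisomerase that untangles copied DNA, Ccnb1, the cyclin of mitotic entry, the spindle checkpoint kinases Bub1 and Bub1b, the kinase Aurkb and the proliferation marker Mki67. Bub1 was at 0 in 7 of the 36 libraries and Ccnb1 in 2. Mki67 ranged from 0.0181 to 0.177 FPKM, with a median estimate of 29.8 fragments per library, and Bub1 from 0 to 0.0368 FPKM, with a median of 2.2 fragments. The limit is set per length, so Mki67 was left out with more estimated fragments than Plk1, which was tested at a median of 14.2. Bub1b ranged from 0.0223 to 0.15 FPKM, Aurkb from 0.00789 to 0.206, Top2a from 0.0266 to 0.17, Cdc6 from 0.00344 to 0.0707 and Ccnb1 from 0 to 0.1.

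**Figure D1:**
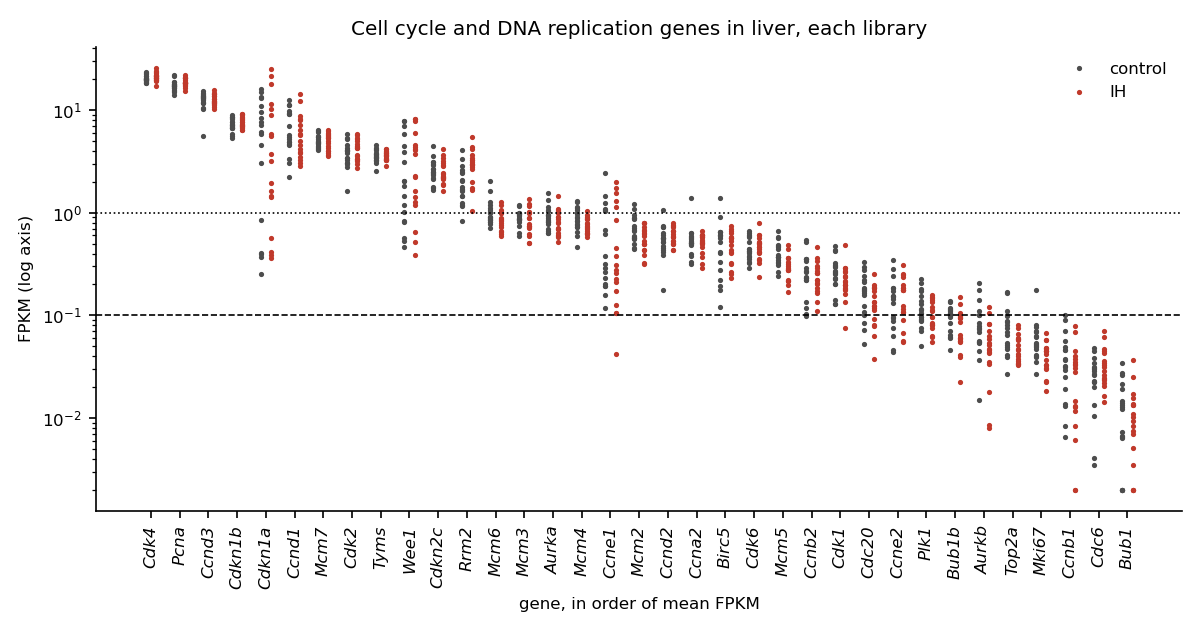
FPKM of the 35 genes in each of the 36 libraries on a log axis, with genes in order of their mean, control in grey and IH in red, and values of 0 drawn at the lowest mark. The dashed line is 0.1 FPKM and the dotted line 1 FPKM, and the 7 genes at the right have means under the dashed line.

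A 24 h cosine was fitted in each condition to the 28 genes tested, and a rhythm was called at a nominal P of 0.01 or less. With each such P, n is the number of libraries in the fit. In control 9 of 28 were called, beside 20% of all 13215 genes tested, and in IH 16 of 28, beside 39.9%. The 6 called in both conditions (15.5% of all genes) were Cdkn1a, Wee1, Ccne1, Rrm2, Mcm2 and Cdkn2c. The 10 called in IH alone (24.4% of all genes) were Cdkn1b, Cdk6, Pcna, Ccne2, Cdk1, Mcm3, Aurka, Ccnd2, Mcm7 and Cdk2, and the 3 called in control alone (4.55%) were Mcm4, Ccnd1 and Birc5. A call in 1 condition is not a difference between them. Where libraries of different time points are compared within a condition below, the time points were picked from the same values. A lack of overlap there is a description and no support for a rhythm, and its share over all genes was not taken. Cdk4 and Tyms, with no call, also had no overlap in control between their highest and lowest means. The test of the difference in cosine called 0 of 28 genes after adjustment, and 0% of all genes (limma), and at an unadjusted P under 0.05 it held 1 of the 28, Mcm4 (P = 0.00233, n = 36, adjusted p = 0.898), which is 3.57% of them beside 4.91% of all genes. The median amplitude of the 28 genes was 0.133 in control and 0.135 in IH on the log2 scale, beside 0.124 and 0.123 over all genes. Without control ZT12 replicate 2 the control count was 12, with Aurka, Ccna2 and Ccne2 added. Without the 3 libraries of high Saa1 it was 13, with Pcna added as well, while IH had 15 with Mcm2 lost. With JTK_Cycle, a rank-based rhythm test, at the same limit 7 were called in control and 12 in IH, with Mcm2 and Birc5 lost in control and Mcm2, Mcm7, Cdk2 and Cdkn2c lost in IH. The share of all genes called was not taken in these alternative settings, so their counts are not a result about the list.

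**Figure D2:**
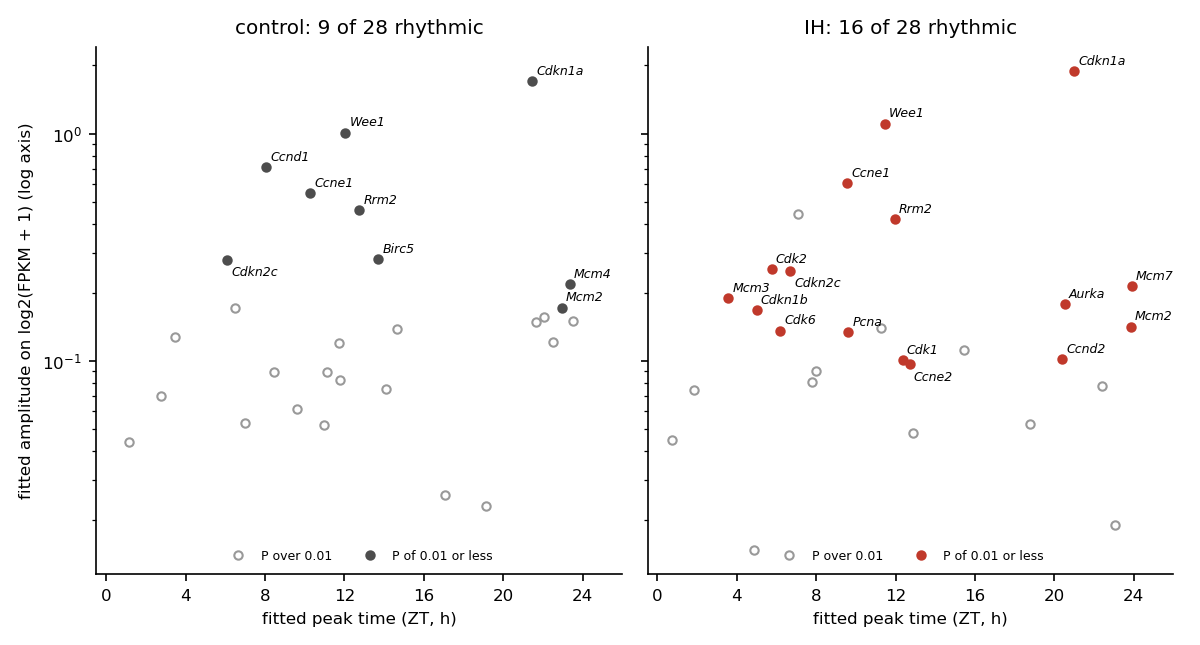
Fitted peak time in hours of ZT against fitted amplitude on the log2(FPKM + 1) scale (log axis) for the 28 genes tested, control on the left and IH on the right, with filled and named points for those called rhythmic. Cdkn1a stands highest in both panels, near ZT21, and the points of the IH panel with a call fall into a group from 3.56 to 12.7 h and a group from 20.4 to 23.9 h.

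Of the 6 MCM helicase genes tested, 2 had a rhythm call in control and 3 in IH, beside 20% and 39.9% of all genes. None differed in level between the conditions after adjustment. Mcm2, a subunit of the ring, peaked near 22.9 h in control (P = 0.00388, n = 18) and 23.9 h in IH (P = 0.00346). In control the Mcm2 values were 0.887, 0.59 and 0.877 FPKM at ZT0, 0.955, 0.681 and 0.88 at ZT4, 0.736, 0.492 and 0.442 at ZT8, 0.454, 0.572 and 0.556 at ZT12, 0.563, 0.583 and 0.668 at ZT16 and 1.21, 1.08 and 0.708 at ZT20. In IH they were 0.68, 0.795 and 0.498 FPKM at ZT0, 0.634, 0.727 and 0.593 at ZT4, 0.499, 0.43 and 0.491 at ZT8, 0.433, 0.626 and 0.315 at ZT12, 0.526, 0.385 and 0.322 at ZT16 and 0.792, 0.662 and 0.797 at ZT20. The control libraries of ZT20 lay above all 3 of ZT12. The IH mean was below the control mean at 6 of 6 time points, with a difference of -0.13 ± 0.04 (SE) on the log2 scale over all of them, which did not pass the test (adjusted p = 0.114). The control call was lost with median of ratios scaling (P = 0.0262, n = 18), quantile normalization (0.0553), an F test of time as a factor (0.0103) and JTK_Cycle (0.012), and without control ZT12 replicate 1 (P = 0.0111, n = 17). The IH call was lost with quantile normalization (P = 0.0227, n = 18) and JTK_Cycle (0.012), and without IH ZT0 replicate 2 (P = 0.0104, n = 17) or IH ZT12 replicate 3 (P = 0.0127).

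Mcm4 had its highest mean at ZT0 and its lowest at ZT12 in control, with a ratio of 2.18 and a peak near 23.3 h (P = 5.66e-06, n = 18). In the control livers Mcm4 read 1.31, 1.28 and 1.12 FPKM at ZT0, 0.764, 0.989 and 0.905 at ZT4, 0.729, 0.835 and 0.827 at ZT8, 0.595, 0.467 and 0.645 at ZT12, 0.883, 0.726 and 0.783 at ZT16 and 0.972, 1.15 and 1.06 at ZT20. Under IH they read 0.727, 1.03 and 0.581 FPKM at ZT0, 0.951, 0.881 and 0.695 at ZT4, 0.632, 0.622 and 0.87 at ZT8, 0.785, 0.776 and 0.619 at ZT12, 0.714, 0.734 and 0.667 at ZT16 and 0.916, 0.63 and 0.872 at ZT20. At ZT0 and ZT20 all IH libraries lay below all control libraries, where 10.8% and 16% of all genes did not overlap in either direction. In IH the time points of the highest and lowest mean overlapped, and no rhythm was called (P = 0.462, n = 18). Control ZT12 replicate 2 held the lowest Mcm4 value of all 36 libraries, and without it and the other libraries of high Saa1 the control P was 2.39e-05.

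Mcm3 was called in IH (peak near 3.56 h, P = 0.00169, n = 18) and not in control (P = 0.211). Mcm3 in control livers measured 0.991, 0.747 and 0.929 FPKM at ZT0, 0.871, 1.15 and 0.94 at ZT4, 0.863, 0.98 and 0.869 at ZT8, 0.842, 0.994 and 0.853 at ZT12, 0.598, 0.627 and 0.808 at ZT16 and 0.976, 1.19 and 0.894 at ZT20. In the IH livers they measured 0.73, 0.895 and 0.748 FPKM at ZT0, 1.36, 1.22 and 1.03 at ZT4, 0.888, 1.17 and 1.01 at ZT8, 0.504, 0.743 and 0.599 at ZT12, 0.616, 0.504 and 0.706 at ZT16 and 0.987, 0.777 and 0.998 at ZT20. In IH the libraries of ZT4 lay above those of ZT16. At ZT12 all IH libraries lay below all control libraries, where 13.1% of all genes did not overlap in either direction.

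Mcm7, the most abundant of the 6 per length at a mean of 5.01 FPKM, peaked near 23.9 h in IH (P = 0.00492, n = 18) and missed the call in control (P = 0.0234). Control livers had Mcm7 values of 6.38, 4.84 and 6.28 FPKM at ZT0, 5.58, 5.51 and 4.19 at ZT4, 4.35, 4.96 and 4.5 at ZT8, 4.79, 4.71 and 4.76 at ZT12, 4.89, 4.04 and 4.25 at ZT16 and 5.25, 5.48 and 6.09 at ZT20. IH livers had 5.46, 5.32 and 6.2 FPKM at ZT0, 5.84, 6.01 and 5.56 at ZT4, 3.6, 4.02 and 3.81 at ZT8, 5.35, 4.8 and 4.5 at ZT12, 3.96, 4.27 and 3.69 at ZT16 and 6.33, 5.72 and 5.01 at ZT20. The IH libraries of ZT4 lay above those of ZT8 without overlap. The IH call was lost without IH ZT0 replicate 3 (P = 0.0138, n = 17) and with median of ratios scaling (P = 0.0126, n = 18), quantile normalization (0.0123) and JTK_Cycle (0.09). The control rhythm passed with values scaled to a common sum (P = 0.00764, n = 18) and without control ZT4 replicate 3 (P = 0.00681, n = 17). Mcm5 and Mcm6 had no rhythm call in either condition, with means of 0.354 and 0.958 FPKM. The difference of Mcm5 between IH and control was -0.11 ± 0.03 (SE) on the log2 scale (adjusted p = 0.138), and it passed without the 3 libraries of high Saa1, at -0.12 (adjusted p = 0.023), and without IH ZT0 replicate 2 alone, at -0.13 (0.0468).

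Rrm2 was the one gene of the list that passed the test of level over all time points. In control the Rrm2 values were 1.45, 1.2 and 0.839 FPKM at ZT0, 1.66, 1.25 and 1.15 at ZT4, 2.06, 1.69 and 2.42 at ZT8, 3.32, 2.83 and 4.12 at ZT12, 2.48, 2.63 and 1.77 at ZT16 and 2.05, 1.64 and 1.45 at ZT20. In IH they were 1.75, 1.05 and 1.68 FPKM at ZT0, 2.96, 2.95 and 3.24 at ZT4, 2.79, 2.96 and 3.43 at ZT8, 4.33, 3.24 and 5.41 at ZT12, 2.92, 4.22 and 3.63 at ZT16 and 2.67, 2.01 and 3.09 at ZT20. The IH mean was above the control mean at 6 of 6 time points, and all 3 IH libraries lay above all 3 control libraries at ZT4, ZT8 and ZT16. Of all genes, 34.5%, 18.1% and 13.8% did not overlap at these time points in either direction. At ZT4 the means were 3.05 ± 0.168 FPKM in IH and 1.35 ± 0.269 in control (SD, 3 libraries each), a ratio of 2.25. At ZT12, the peak in both conditions, they were 4.33 ± 1.08 and 3.42 ± 0.652, and the libraries overlapped. Over all time points 1 of the 28 genes passed, Rrm2, beside 0.356% of all genes, and its adjusted p lay between 0.000274 and 0.00709 under all alternatives, each left-out library included. At ZT4 and ZT8 together it was higher by 0.60 ± 0.09 (SE) on the log2 scale (adjusted p = 0.00856), and at ZT4 alone by 0.79 ± 0.16 (adjusted p = 0.0112). The call at ZT4 was lost without control ZT4 replicate 3 (adjusted p = 0.0687), IH ZT4 replicate 2 (0.0536) or IH ZT4 replicate 3 (0.0745). Its rhythm was called in both conditions, with a peak near 12.7 h in control (P = 4.31e-06, n = 18) and 12.0 h in IH (P = 0.000241).

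Pcna, the clamp that holds DNA polymerase on its template, was abundant and nearly flat. In the control livers Pcna read 17.0, 14.2 and 17.4 FPKM at ZT0, 15.7, 17.1 and 15.4 at ZT4, 17.1, 18.8 and 18.9 at ZT8, 21.5, 16.4 and 22.1 at ZT12, 18.0, 17.4 and 15.1 at ZT16 and 17.0, 17.9 and 16.4 at ZT20. Under IH they read 17.5, 15.5 and 18.7 FPKM at ZT0, 18.4, 18.8 and 18.5 at ZT4, 20.4, 20.4 and 21.2 at ZT8, 20.7, 19.8 and 21.8 at ZT12, 16.2, 18.4 and 18.5 at ZT16 and 18.3, 17.8 and 17.3 at ZT20. All 3 IH libraries lay above all 3 control libraries at ZT4 and at ZT8, and the IH mean was higher at 6 of 6 time points. At ZT4 and ZT8 together the difference was 0.18 ± 0.04 (SE) on the log2 scale (adjusted p = 0.0228), a ratio of the means of 1.15 at ZT4 and 1.13 at ZT8. It did not pass over all time points, at 0.11 ± 0.04 (adjusted p = 0.227). The call was lost without control ZT4 replicate 1 (adjusted p = 0.0597), IH ZT4 replicate 2 (0.0601) or IH ZT4 replicate 3 (0.0525), and with a spread taken from all 36 libraries (0.135). A rhythm was called in IH (peak near 9.62 h, P = 0.000919, n = 18), and missed in control (P = 0.0647), where it passed without the libraries of high Saa1 (P = 0.00217, n = 16), with median of ratios scaling (0.000472) and with quantile normalization (0.00334). Tyms, thymidylate synthase, had a mean of 3.6 FPKM and no call in any test, ranging from 2.56 through a median of 3.54 to 4.53 FPKM in control and from 2.88 through a median of 3.61 to 4.21 FPKM in IH.

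**Figure D3:**
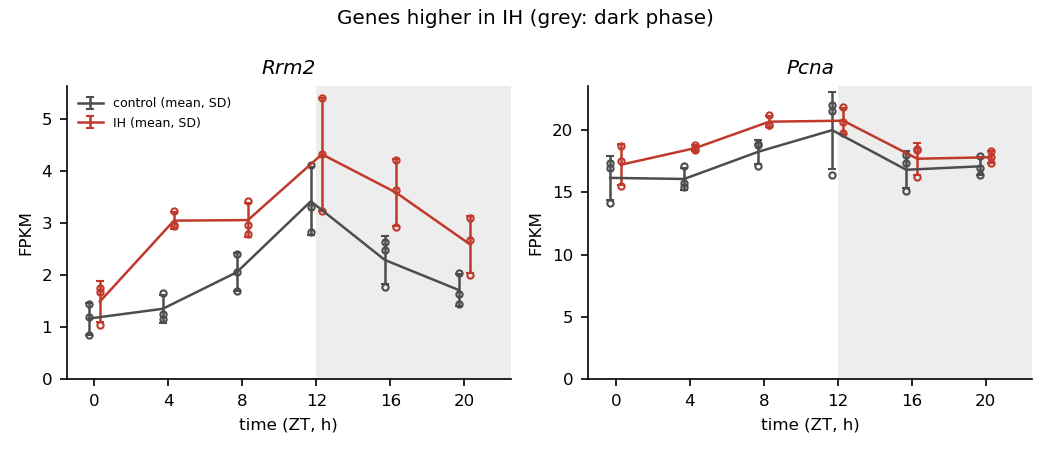
FPKM of Rrm2 and Pcna against time in hours of ZT, control in grey and IH in red, with circles for single libraries, lines for the means of 3 libraries and bars for the SD, and grey shading for the dark phase. The IH mean of Rrm2 at ZT4 was 2.25 times that of control, and the Pcna means differed by 1.15 times at the same time point.

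At ZT4 and ZT8 together 2 of the 28 genes were higher in IH and none lower, beside 7.98% of all genes. With median of ratios scaling the calls over all genes at ZT4 and ZT8 changed from 799 higher and 255 lower to 472 higher and 452 lower. Those over all time points changed from 40 higher and 7 lower to 22 higher and 11 lower. Rrm2 and Pcna kept their calls at ZT4 and ZT8, both higher in IH, with that scaling. At single time points the test called 1 of the 28 genes at ZT4 (1.16% of all genes) and none at ZT0 (0%), ZT8 (0.00757%), ZT12 (0.772%), ZT16 (0.00757%) or ZT20 (0%) (limma, adjusted p under 0.05). At an unadjusted P under 0.05 the counts of the 28 were 2 at ZT0 (7.57% of all genes), 4 at ZT4 (16.4%), 3 at ZT8 (4.74%), 5 at ZT12 (24.6%), 1 at ZT16 (3.3%) and 4 at ZT20 (4.74%). As shares of the 28 these are 7.14%, 14.3%, 10.7%, 17.9%, 3.57% and 14.3%. At an unadjusted P of 0.01 or less were Aurka and Mcm4 at ZT0 and Cdkn1a and Rrm2 at ZT4. So were Birc5, Mcm3 and Mcm5 at ZT12, Rrm2 at ZT16 and Mcm5 at ZT20. Of these, Rrm2 at ZT4 alone passed after adjustment. The share of all genes at that limit was not taken, so the others are given as names only. The libraries of IH lay wholly above those of control for 6 of the 28 genes at ZT4 and 5 at ZT8, beside 26.7% and 11% of all genes. They lay wholly below for 3 at ZT4 and 5 at ZT8, beside 7.79% and 7.16%. At ZT0, ZT12, ZT16 and ZT20 they lay wholly above for 1, 0, 3 and 0 of the 28. They lay wholly below for 2, 2, 5 and 3. In either direction, 10.8%, 13.1%, 13.8% and 16% of all genes did not overlap at these 4 time points. The median difference of the 28 genes was -0.02 on the log2 scale over all time points, beside 0.03 for all genes.

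**Figure D4:**
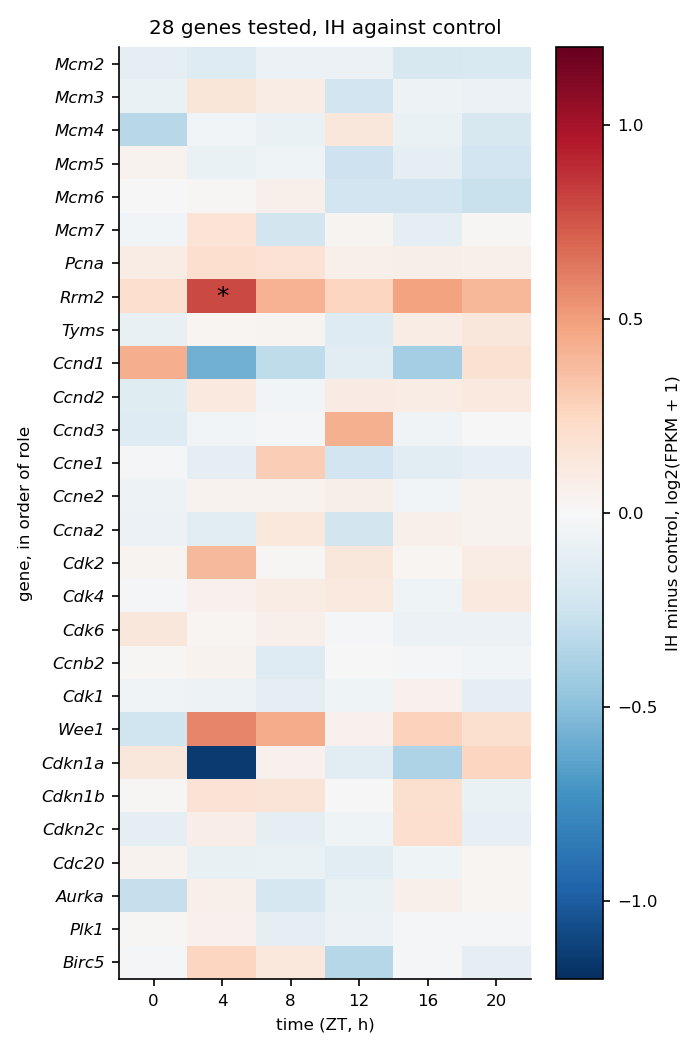
Difference between IH and control on the log2(FPKM + 1) scale for the 28 genes tested (rows, in order of role) at each time point in hours of ZT (columns), red for higher and blue for lower in IH. The star marks the 1 difference past an adjusted p of 0.05, Rrm2 at ZT4 (0.79), and Cdkn1a at ZT4 shows the deepest blue.

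Promoter sequence, 250 bases before to 50 after the start site, was available from RefSeq (GRCm38.p6) for 28 of the 35 genes in 32 windows. The other 7 genes were Wee1, Ccne2, Ccnd1, Aurkb, Ccnd2, Ccna2 and Mcm4. The promoters are shown for both genes higher in IH, for 2 helicase genes, for Cdk1 and for the inhibitor gene Cdkn2c, all rhythmic in IH. Mcm7 and Cdkn2c each had a further window, which is not shown. Capitals mark each match, on either strand, to the E-box CACGTG, the D-box TTANGTAA, the RORE core TAGGTCA, the CRE TGACGTCA, the E2F sites TTTNGCGC and TTTCCCGC, the CHR TTTGAA, the CCAAT box CCAAT and the hypoxia response core ACGTG, which lies inside some E-boxes.
Rrm2, chr12:24708004-24708303, plus strand: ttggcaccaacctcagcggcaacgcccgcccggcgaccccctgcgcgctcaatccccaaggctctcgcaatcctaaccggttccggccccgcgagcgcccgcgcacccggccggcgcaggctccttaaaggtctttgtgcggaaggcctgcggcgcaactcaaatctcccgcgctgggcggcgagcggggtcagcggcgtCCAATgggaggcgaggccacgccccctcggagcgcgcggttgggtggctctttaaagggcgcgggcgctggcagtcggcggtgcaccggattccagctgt
Pcna, chr2:132253131-132253430, minus strand: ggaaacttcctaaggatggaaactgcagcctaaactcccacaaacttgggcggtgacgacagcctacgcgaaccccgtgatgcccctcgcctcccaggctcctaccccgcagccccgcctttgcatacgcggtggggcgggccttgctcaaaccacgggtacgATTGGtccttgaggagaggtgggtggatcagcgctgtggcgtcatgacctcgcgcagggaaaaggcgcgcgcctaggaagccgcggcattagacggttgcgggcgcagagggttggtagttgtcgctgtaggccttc
Mcm2, chr6:88898731-88899030, minus strand: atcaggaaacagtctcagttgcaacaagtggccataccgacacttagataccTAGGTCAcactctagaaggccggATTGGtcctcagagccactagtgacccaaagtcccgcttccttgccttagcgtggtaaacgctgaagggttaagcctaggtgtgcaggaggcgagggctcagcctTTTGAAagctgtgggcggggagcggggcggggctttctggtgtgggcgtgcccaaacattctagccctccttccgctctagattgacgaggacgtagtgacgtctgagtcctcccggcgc
Mcm7, chr5:138171834-138172133, minus strand: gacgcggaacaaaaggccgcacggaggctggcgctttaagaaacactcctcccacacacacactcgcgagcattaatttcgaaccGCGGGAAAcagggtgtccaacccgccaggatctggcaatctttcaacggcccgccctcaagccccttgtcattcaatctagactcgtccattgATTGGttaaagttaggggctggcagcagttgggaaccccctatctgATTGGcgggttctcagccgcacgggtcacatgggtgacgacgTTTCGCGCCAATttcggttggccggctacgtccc
Cdk1, chr10:69352863-69353162, minus strand: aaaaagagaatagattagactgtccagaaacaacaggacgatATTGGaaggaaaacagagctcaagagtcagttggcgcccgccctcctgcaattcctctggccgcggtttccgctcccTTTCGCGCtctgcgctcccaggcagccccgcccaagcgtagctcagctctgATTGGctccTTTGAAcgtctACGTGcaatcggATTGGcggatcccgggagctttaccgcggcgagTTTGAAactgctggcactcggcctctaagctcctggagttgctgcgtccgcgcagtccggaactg
Cdkn2c, chr4:109665323-109665622, minus strand: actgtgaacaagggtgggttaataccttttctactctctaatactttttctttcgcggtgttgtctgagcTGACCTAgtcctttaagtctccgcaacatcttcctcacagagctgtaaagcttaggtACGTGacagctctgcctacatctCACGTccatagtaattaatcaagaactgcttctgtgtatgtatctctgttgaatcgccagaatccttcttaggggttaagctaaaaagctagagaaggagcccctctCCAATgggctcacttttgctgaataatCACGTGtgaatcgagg
In the Rrm2 and Pcna windows the CCAAT box was the one motif found, 50 bases before the start site of Rrm2 and 87 before that of Pcna on the opposite strand. Such a box stands in 37.4% of all 32851 windows and in those of 21 of the 28 genes. An E2F site TTTNGCGC stood in the windows of Cdk1, Mcm3, Mcm5, Mcm6 and Mcm7 (1.38% of all windows) and TTTCCCGC in those of Cdc6, Cdk2, Mcm3 and Mcm7 (1.07%). The CHR, known from genes of mitosis, stood in 9 of the 28, Aurka, Bub1b, Ccnb2, Cdc20, Cdk1, Mcm2, Mki67, Plk1 and Top2a (17.9% of all windows). The E-box stood in Cdk4, Cdk6, Cdkn2c and Tyms (7.15%), the RORE core in Cdkn2c and Mcm2 (2.61%), the CRE in Mcm5 (1.79%) and the D-box in Top2a (2.32%). The hypoxia response core stood in 12 of the 28 (19.6%), and in neither Rrm2 nor Pcna. Its match in Mcm7 lay in the window not shown, chr5:138171217-138171516. The Cdkn2c window not shown, chr4:109666707-109667006, held none of these motifs. These are matches of letters in the windows and were not tested for binding.

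Among the 9 G1 and S phase cyclins and kinases, 2 had a rhythm call in control and 5 in IH. The shares of all genes were 20% and 39.9%, and none of the 9 passed the tests between the conditions. Ccne1, cyclin E1, which drives entry into S phase with CDK2, rose late in the light phase. Ccne1 in control livers measured 0.117, 0.291 and 0.231 FPKM at ZT0, 0.625, 0.263 and 0.376 at ZT4, 1.04, 1.07 and 1.06 at ZT8, 2.44, 1.25 and 1.46 at ZT12, 0.194, 0.195 and 0.673 at ZT16 and 0.314, 0.156 and 0.202 at ZT20. In the IH livers they measured 0.126, 0.453 and 0.0423 FPKM at ZT0, 0.261, 0.31 and 0.375 at ZT4, 1.3, 1.73 and 1.56 at ZT8, 2.0, 0.856 and 1.13 at ZT12, 0.174, 0.226 and 0.279 at ZT16 and 0.106, 0.104 and 0.209 at ZT20. The libraries of ZT8 and ZT12 lay above all others in both conditions. At ZT8 all 3 IH libraries lay above all 3 of control, with means of 1.53 ± 0.218 and 1.06 ± 0.0193 FPKM (SD, 3 libraries each). The fitted peak was 10.3 h in control (P = 1.06e-05, n = 18) and 9.56 h in IH (P = 4.86e-06).

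Ccnd1, cyclin D1, the growth-factor-responsive cyclin of G1, was called in control (peak near 8.07 h, P = 4.85e-06, n = 18) and missed the call in IH (P = 0.0406). Control livers had Ccnd1 values of 3.07, 5.75 and 4.9 FPKM at ZT0, 11.1, 5.27 and 11.1 at ZT4, 9.82, 12.5 and 9.36 at ZT8, 9.14, 9.08 and 6.92 at ZT12, 4.53, 5.48 and 4.62 at ZT16 and 4.94, 3.35 and 2.22 at ZT20. IH livers had 12.4, 6.33 and 3.07 FPKM at ZT0, 5.9, 5.7 and 5.0 at ZT4, 8.78, 8.02 and 8.11 at ZT8, 7.16, 14.4 and 3.85 at ZT12, 3.52, 2.85 and 3.94 at ZT16 and 4.19, 4.51 and 3.25 at ZT20. In control the libraries of ZT8 lay above those of ZT20. In IH the replicates were far apart at ZT0 and ZT12, and without IH ZT0 replicate 1 the rhythm passed (P = 0.00457, n = 17). At ZT4 and ZT8 together the difference of Ccnd1 was -0.44 ± 0.15 (SE) on the log2 scale and missed the threshold (adjusted p = 0.0884). It passed, lower in IH, without control ZT4 replicate 2 (-0.57, adjusted p = 0.021).

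Ccne2, cyclin E2, was low and peaked near 12.7 h in IH (P = 0.000972, n = 18, against 0.0553 in control). In control the Ccne2 values were 0.0942, 0.186 and 0.0752 FPKM at ZT0, 0.0438, 0.0461 and 0.0879 at ZT4, 0.0965, 0.241 and 0.186 at ZT8, 0.171, 0.0626 and 0.347 at ZT12, 0.155, 0.28 and 0.152 at ZT16 and 0.132, 0.153 and 0.144 at ZT20. In IH they were 0.0669, 0.0558 and 0.0896 FPKM at ZT0, 0.107, 0.0553 and 0.107 at ZT4, 0.183, 0.178 and 0.253 at ZT8, 0.247, 0.185 and 0.312 at ZT12, 0.196, 0.176 and 0.123 at ZT16 and 0.116, 0.238 and 0.177 at ZT20. Control ZT12 replicates 2 and 3 were far apart, and without the libraries of high Saa1 the control P was 0.00532. The fitted amplitudes were 0.0755 in control and 0.0968 in IH on the log2 scale.

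Ccnd2, cyclin D2, peaked near 20.4 h in IH (P = 0.00231, n = 18, against 0.069 in control). In the control livers Ccnd2 read 1.05, 0.73 and 0.749 FPKM at ZT0, 0.455, 0.415 and 0.387 at ZT4, 0.434, 0.637 and 0.562 at ZT8, 0.572, 0.178 and 0.561 at ZT12, 0.516, 0.611 and 0.477 at ZT16 and 0.552, 0.722 and 0.513 at ZT20. Under IH they read 0.66, 0.586 and 0.742 FPKM at ZT0, 0.533, 0.429 and 0.658 at ZT4, 0.437, 0.5 and 0.579 at ZT8, 0.503, 0.493 and 0.586 at ZT12, 0.757, 0.528 and 0.615 at ZT16 and 0.731, 0.795 and 0.667 at ZT20. The highest value was in control ZT0 replicate 1 and the lowest in control ZT12 replicate 2. With a spread shared between the conditions the IH call was lost (P = 0.0447, n = 36). It was also lost in an F test of time as a factor (P = 0.0402, n = 18).

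Cdk2, the partner of cyclin E, peaked near 5.76 h in IH (P = 0.00584, n = 18, against 0.26 in control). Cdk2 in control livers measured 3.38, 3.03 and 4.07 FPKM at ZT0, 3.84, 4.05 and 3.04 at ZT4, 4.52, 5.86 and 5.36 at ZT8, 5.27, 1.61 and 4.24 at ZT12, 3.29, 2.95 and 2.77 at ZT16 and 3.98, 4.03 and 3.37 at ZT20. In the IH livers they measured 3.3, 3.23 and 4.27 FPKM at ZT0, 4.94, 5.72 and 4.51 at ZT4, 5.37, 5.83 and 4.68 at ZT8, 5.22, 2.99 and 3.62 at ZT12, 2.7, 3.32 and 3.16 at ZT16 and 4.29, 4.38 and 3.6 at ZT20. At ZT4 all IH libraries lay above all control libraries, with a ratio of the means of 1.39, and the IH mean was higher at 6 of 6 time points. The IH call was lost in 7 of the 36 runs that left out 1 library, with P between 0.00237 and 0.0172 over all of them, namely without IH ZT4 replicate 1 or 2, IH ZT8 replicate 1 or 2, or any IH library of ZT16. It was also lost with JTK_Cycle (P = 0.0274, n = 18). With a spread shared between the conditions it was lost as well (P = 0.024, n = 36). Control ZT12 replicate 2 held the lowest Cdk2 value of all libraries, and without the libraries of high Saa1 the control P was 0.0178.

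Cdk6, a partner of the D cyclins, was low and peaked near 6.2 h in IH (P = 0.000245, n = 18, against 0.0422 in control). Control livers had Cdk6 values of 0.286, 0.444 and 0.374 FPKM at ZT0, 0.382, 0.574 and 0.601 at ZT4, 0.444, 0.633 and 0.595 at ZT8, 0.661, 0.407 and 0.334 at ZT12, 0.514, 0.427 and 0.418 at ZT16 and 0.326, 0.421 and 0.353 at ZT20. IH livers had 0.447, 0.568 and 0.504 FPKM at ZT0, 0.519, 0.607 and 0.505 at ZT4, 0.798, 0.599 and 0.494 at ZT8, 0.411, 0.459 and 0.461 at ZT12, 0.416, 0.343 and 0.403 at ZT16 and 0.324, 0.237 and 0.355 at ZT20. In IH the libraries of ZT8, the highest mean, lay above those of ZT20, the lowest, with a ratio of the means of 2.06. The control rhythm passed with quantile normalization (P = 0.00503, n = 18).

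Cdk4, the other partner of the D cyclins, was the most abundant gene of the list and had no call in any test. In control the Cdk4 values were 20.5, 22.6 and 20.3 FPKM at ZT0, 20.3, 21.4 and 19.0 at ZT4, 19.9, 22.8 and 21.5 at ZT8, 23.8, 18.5 and 20.4 at ZT12, 20.1, 19.8 and 19.5 at ZT16 and 19.4, 19.6 and 18.5 at ZT20. In IH they were 23.5, 19.4 and 19.8 FPKM at ZT0, 20.5, 20.8 and 21.6 at ZT4, 21.5, 23.8 and 22.9 at ZT8, 22.0, 25.6 and 20.4 at ZT12, 20.6, 19.9 and 17.0 at ZT16 and 21.3, 22.2 and 19.0 at ZT20. Its highest and lowest means differed by 1.12 times in control and 1.19 times in IH. Ccnd3, cyclin D3, ranged from 5.55 through a median of 13.1 to 15.4 FPKM in control and from 10.3 through a median of 12.3 to 15.7 FPKM in IH, and the control minimum was ZT12 replicate 2, where the other 2 libraries of that time point had 14.3 and 13.2 FPKM. Ccna2, cyclin A2, ranged from 0.313 through a median of 0.516 to 1.38 FPKM in control and from 0.287 through a median of 0.523 to 0.659 FPKM in IH, and its maximum came from the same library.

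Of the genes of mitotic entry, Wee1, the kinase that holds CDK1 inactive, had the second widest swing of the list on the log2 scale. In the control livers Wee1 read 1.02, 0.804 and 0.561 FPKM at ZT0, 0.838, 0.532 and 0.459 at ZT4, 3.12, 7.04 and 7.83 at ZT8, 7.77, 1.8 and 5.79 at ZT12, 3.87, 4.42 and 2.05 at ZT16 and 1.45, 2.03 and 1.18 at ZT20. Under IH they read 0.653, 0.388 and 0.514 FPKM at ZT0, 1.18, 1.41 and 1.63 at ZT4, 8.13, 8.19 and 7.84 at ZT8, 5.99, 4.14 and 4.12 at ZT12, 4.6, 3.7 and 4.39 at ZT16 and 2.21, 2.3 and 1.28 at ZT20. In control the libraries of ZT0 and ZT4 lay below all others. In IH those of ZT0 lay below all others and those of ZT8 above all others. Control ZT12 replicate 2 lay below the other 2 libraries of its time point at 1.80 FPKM. The fitted peak was 12.0 h in control (P = 6.55e-05, n = 18) and 11.5 h in IH (P = 7.45e-07), with amplitudes of 1.01 and 1.11 on the log2 scale. Without the libraries of high Saa1 the control P was 6.34e-07. At ZT4 and at ZT8 all IH libraries lay above all control libraries, with ratios of the means of 2.31 and 1.34. The difference at both time points together was 0.52 ± 0.16 (SE) and missed the threshold (adjusted p = 0.0622). It passed with a pseudocount of 0.1 (adjusted p = 0.0432) and without control ZT8 replicate 2 (0.0409) or replicate 3 (0.0277). Wee1 overlaps the annotated antisense gene 1600010M07Rik by 21241 bases, and the strand setting of the authors' counting was not given in the sources used here.

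Cdk1, the kinase of mitosis, peaked near 12.4 h in IH (P = 0.0011, n = 18, against 0.0335 in control). Cdk1 in control livers measured 0.228, 0.13 and 0.14 FPKM at ZT0, 0.295, 0.202 and 0.202 at ZT4, 0.272, 0.421 and 0.301 at ZT8, 0.432, 0.468 and 0.265 at ZT12, 0.25, 0.258 and 0.13 at ZT16 and 0.323, 0.31 and 0.232 at ZT20. In the IH livers they measured 0.136, 0.075 and 0.185 FPKM at ZT0, 0.196, 0.181 and 0.178 at ZT4, 0.267, 0.199 and 0.237 at ZT8, 0.483, 0.242 and 0.291 at ZT12, 0.287, 0.271 and 0.199 at ZT16 and 0.211, 0.215 and 0.16 at ZT20. At ZT4, ZT8 and ZT20 all IH libraries lay below all control libraries. Of all genes, 34.5%, 18.1% and 16% did not overlap there in either direction. Over all time points the difference was -0.05 ± 0.03 (SE) on the log2 scale (adjusted p = 0.439). An F test of time as a factor of 6 levels lost the IH call (P = 0.0152, n = 18). The control rhythm passed with quantile normalization (P = 0.00901, n = 18) and without control ZT16 replicate 3 (P = 0.0081, n = 17). With a spread shared between the conditions it passed too (P = 0.00967, n = 36). Ccnb2, a mitotic cyclin, ranged from 0.0986 through a median of 0.249 to 0.546 FPKM in control and from 0.11 through a median of 0.239 to 0.468 FPKM in IH, with no call.

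Of the CDK inhibitor genes, 3 of 3 had a rhythm call in IH and 2 of 3 in control, beside 39.9% and 20% of all genes. Cdkn1a, which is also a target of p53, had the largest amplitude of the list in both conditions. Control livers had Cdkn1a values of 11.0, 9.48 and 13.1 FPKM at ZT0, 7.69, 3.08 and 8.41 at ZT4, 0.373, 0.252 and 0.399 at ZT8, 0.404, 4.61 and 0.853 at ZT12, 5.9, 7.16 and 6.12 at ZT16 and 14.9, 13.4 and 16.0 at ZT20. IH livers had 8.89, 18.1 and 11.4 FPKM at ZT0, 3.7, 1.62 and 1.47 at ZT4, 0.413, 0.359 and 0.384 at ZT8, 0.565, 1.42 and 1.96 at ZT12, 3.19, 5.78 and 5.55 at ZT16 and 10.3, 21.3 and 25.2 at ZT20. The libraries of ZT8 lay below all those of ZT20 and ZT0 in both conditions. The fitted peak was 21.5 h in control (P = 8.82e-08, n = 18) and 21.0 h in IH (P = 4.5e-10), with amplitudes of 1.71 and 1.89 on the log2 scale. At ZT4 the means were 2.26 ± 1.25 FPKM in IH and 6.39 ± 2.89 in control (SD, 3 libraries each), and the libraries overlapped. That difference passed without control ZT12 replicate 2 (-1.15 on the log2 scale, adjusted p = 0.0293) and without the 3 libraries of high Saa1 (adjusted p = 0.021). In the fit with all 36 libraries it did not (adjusted p = 0.119).

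**Figure D5:**
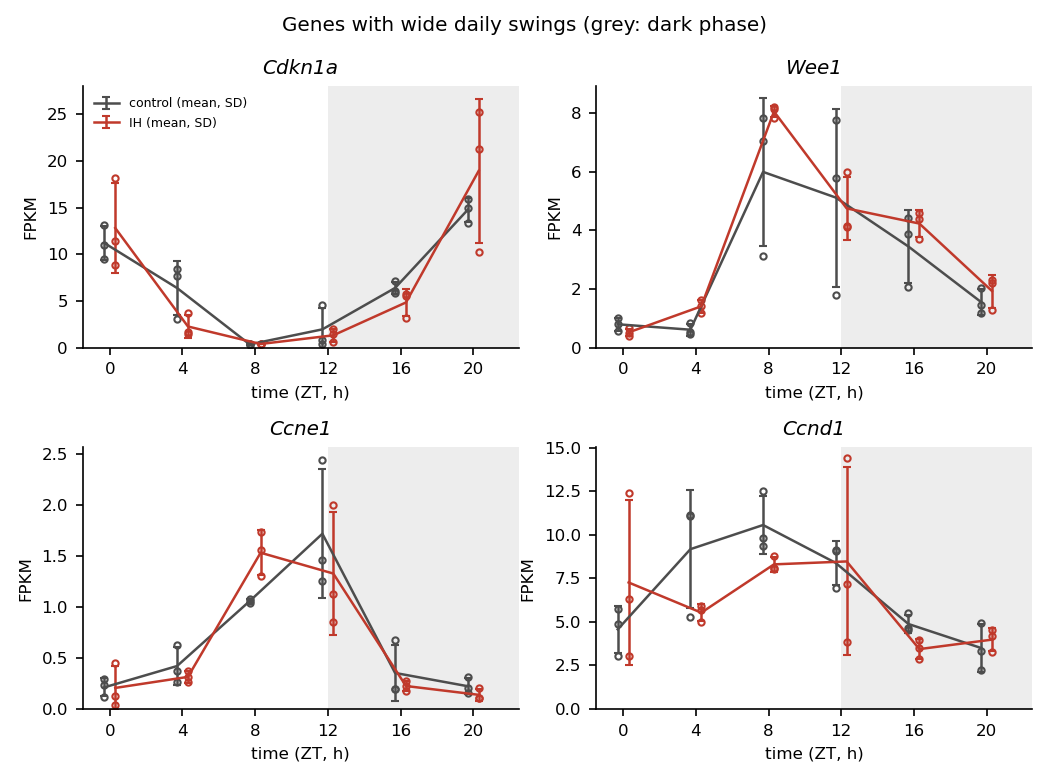
FPKM of Cdkn1a, Wee1, Ccne1 and Ccnd1 against time in hours of ZT, control in grey and IH in red, with circles for single libraries, lines for the means of 3 libraries, bars for the SD and grey shading for the dark phase. Cdkn1a is lowest at ZT8 in both conditions, the time point at which Wee1 has its highest mean.

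Cdkn2c, which encodes the CDK4 and CDK6 inhibitor p18, peaked near 6.08 h in control (P = 0.000734, n = 18) and 6.7 h in IH (P = 0.00405). In control the Cdkn2c values were 2.37, 2.49 and 2.49 FPKM at ZT0, 2.9, 2.68 and 3.0 at ZT4, 4.47, 3.15 and 3.56 at ZT8, 3.14, 2.2 and 2.31 at ZT12, 1.68, 1.73 and 1.79 at ZT16 and 2.65, 2.12 and 2.42 at ZT20. In IH they were 2.18, 2.18 and 2.23 FPKM at ZT0, 3.42, 2.83 and 3.05 at ZT4, 4.18, 3.15 and 2.89 at ZT8, 3.61, 1.63 and 2.26 at ZT12, 1.87, 2.14 and 2.44 at ZT16 and 2.23, 2.38 and 1.89 at ZT20. The libraries of ZT8 lay above those of ZT16 in both conditions. The IH call was lost without IH ZT8 replicate 1 (P = 0.0133, n = 17) and without IH ZT20 replicate 3 (P = 0.01 as rounded, just above the limit). With all libraries it was lost in an F test of time as a factor (P = 0.0262, n = 18) and with JTK_Cycle (0.0354).

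Cdkn1b, which encodes the inhibitor p27, peaked near 5 h in IH (P = 0.000242, n = 18, against 0.126 in control), with an amplitude of 0.168 against 0.127 on the log2 scale. In the control livers Cdkn1b read 8.94, 6.71 and 7.28 FPKM at ZT0, 7.21, 8.12 and 7.68 at ZT4, 6.82, 7.58 and 8.65 at ZT8, 8.44, 5.34 and 7.12 at ZT12, 5.85, 7.01 and 5.6 at ZT16 and 6.64, 8.65 and 6.64 at ZT20. Under IH they read 7.57, 7.38 and 8.04 FPKM at ZT0, 8.34, 9.05 and 8.99 at ZT4, 9.16, 8.19 and 8.51 at ZT8, 6.97, 6.66 and 6.86 at ZT12, 7.21, 7.16 and 7.07 at ZT16 and 6.46, 7.7 and 6.38 at ZT20. At ZT4 and ZT16 all IH libraries lay above all control libraries, with ratios of the means of 1.15 and 1.16. Of all genes, 34.5% and 13.8% did not overlap there in either direction. At ZT4 and ZT8 together the difference was 0.16 ± 0.06 (SE) on the log2 scale and missed the threshold (adjusted p = 0.0871), and it passed without control ZT8 replicate 3 (0.20, adjusted p = 0.0341).

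Of the 8 genes of mitotic kinases, checkpoint and exit, 4 were high enough to test and 1 was called in each condition. The shares of all genes were 20% in control and 39.9% in IH. Aurka, the centrosome kinase Aurora A, peaked near 20.5 h in IH (P = 0.00194, n = 18) and missed the call in control (P = 0.0102). Aurka in control livers measured 1.55, 1.04 and 1.07 FPKM at ZT0, 0.776, 0.697 and 0.819 at ZT4, 0.632, 0.845 and 0.922 at ZT8, 0.667, 0.949 and 0.812 at ZT12, 0.878, 0.824 and 0.639 at ZT16 and 0.958, 1.15 and 1.32 at ZT20. In the IH livers they measured 1.08, 0.605 and 0.813 FPKM at ZT0, 0.918, 0.909 and 0.7 at ZT4, 0.52, 0.598 and 0.577 at ZT8, 0.694, 0.794 and 0.637 at ZT12, 0.874, 0.987 and 0.713 at ZT16 and 1.05, 1.44 and 1.05 at ZT20. At ZT8 all IH libraries lay below all control libraries. The control rhythm passed without the libraries of high Saa1, where P was 0.00316, with values scaled to a common sum (0.0035) and with a spread shared between the conditions (0.00474). It also passed without control ZT4 replicate 2 (P = 0.00844, n = 17), ZT8 replicate 3 (0.00675), ZT12 replicate 2 (0.00436) or ZT16 replicate 3 (0.00641).

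Birc5, survivin, which serves chromosome segregation, peaked near 13.7 h in control (P = 0.000738, n = 18) and missed the call in IH (P = 0.0121, peak near 11.3 h). Control livers had Birc5 values of 0.41, 0.194 and 0.178 FPKM at ZT0, 0.279, 0.22 and 0.121 at ZT4, 0.33, 0.599 and 0.649 at ZT8, 0.906, 1.4 and 0.611 at ZT12, 0.607, 0.563 and 0.406 at ZT16 and 0.654, 0.519 and 0.653 at ZT20. IH livers had 0.23, 0.252 and 0.263 FPKM at ZT0, 0.432, 0.322 and 0.565 at ZT4, 0.746, 0.57 and 0.669 at ZT8, 0.41, 0.569 and 0.638 at ZT12, 0.529, 0.316 and 0.688 at ZT16 and 0.409, 0.58 and 0.489 at ZT20. At ZT4 all IH libraries lay above all control libraries, with a ratio of the means of 2.13, while the highest value of all came from control ZT12 replicate 2. Whether Birc5 was called in control alone changed with the setting. The control call was lost with JTK_Cycle (P = 0.0159, n = 18), and it held without the libraries of high Saa1, where P was 0.00019. The IH rhythm passed with median of ratios scaling (P = 0.00708, n = 18), quantile normalization (0.00172) and an F test of time as a factor (0.00648). It also passed without IH ZT4 replicate 3 (P = 0.00914, n = 17), ZT12 replicate 1 (0.00326), ZT16 replicate 2 (0.00442) or ZT20 replicate 2 (0.00432). At ZT4 and ZT8 together its difference was 0.19 ± 0.06 (SE) on the log2 scale (adjusted p = 0.0849), and it passed without control ZT8 replicate 3 (0.22, adjusted p = 0.048). Cdc20, an activator of the anaphase-promoting complex, ranged from 0.0522 through a median of 0.175 to 0.33 FPKM in control and from 0.0371 through a median of 0.129 to 0.255 FPKM in IH. Plk1, a kinase of mitosis, ranged from 0.0505 through a median of 0.109 to 0.224 FPKM and from 0.0554 through a median of 0.0964 to 0.157 FPKM, at an estimated median of 14.2 fragments per library, and neither was called.

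Control ZT12 replicate 2, the library rich in neutrophil and macrophage markers, held the highest value of the 36 libraries for 8 of the 35 genes, Mcm5, Mcm6, Tyms, Top2a, Ccna2, Cdc20, Birc5 and Mki67. Among the 28 tested it was highest for 6, beside 14.5% of all genes tested, and lowest for 5, Mcm4, Ccnd2, Ccnd3, Cdk2 and Cdkn1b, beside 40.2%. Mki67 was 0.177 FPKM there and at most 0.0797 in the other 35 libraries, and Ccna2 was 1.38 against at most 0.659. The median of ratios scale of this library was 0.759, against 0.912 to 1.06 in the others. The part of those cells, or of a shift of the whole library, in the values was not tested. Of the 35 genes, 15 overlap another annotated gene on the opposite strand in GENCODE vM21, among them Ccnd1, Cdk2, Mcm7 and Cdkn1a, while Rrm2 (chr12:24708241-24714146, plus strand) and Pcna (chr2:132249162-132253314, minus strand) do not.

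A wider set of 156 genes of the same processes, written with earlier results of these data known, held 134 that were high enough to test. Of these, 28 had a rhythm call in control (20.9%, beside 20% of all genes), 54 in IH (40.3%, beside 39.9%) and 20 in both (14.9%, beside 15.5%). These shares were near those of all genes, so the genes below are given as values and not as a result about these processes. The median amplitude was 0.118 in control and 0.126 in IH on the log2 scale, beside 0.124 and 0.123 over all genes. Among 41 genes of origin licensing and the fork, 12 were called in control and 21 in IH. Cdt1, which loads the helicase beside CDC6, peaked near 6.4 h in control (P = 0.000761, n = 18) and 5.75 h in IH (P = 8.77e-08). Pold4, a subunit of DNA polymerase delta, peaked near 4.7 h in IH (P = 2.54e-05, n = 18). Of 17 genes of RB, E2F and the DREAM complex, 1 was called in control and 7 in IH. The smallest P were those of Rbl2 (1.23e-05), Lin54 (5.38e-05) and Tfdp2 (0.000368), all in IH. Of 18 further genes of mitosis, 4 were called in control and 7 in IH. Ccnf had the smallest P in control (8.55e-06, peak near 20.8 h), while Mad2l1 (4.44e-05) and Cenpa (5.54e-05) had theirs in IH. Of 18 brakes, checkpoint genes and p53 targets, 6 were called in each condition. The smallest P were those of Atr (3.05e-05 in IH), Trp53 (5.1e-05 in IH) and Ccng2 (0.000358 in control). Of 40 other cyclins, CDKs and ubiquitin ligase subunits, 5 were called in control and 13 in IH. Ccnk (2.48e-05), Anapc7 (4.11e-05) and Anapc2 (5.54e-05) had the smallest P, all in IH.

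None of the 134 wider genes passed the test over all time points, and at ZT4 and ZT8 together 8 were higher in IH and 1 lower. That is 6.72% of them, beside 7.98% of all genes. Cdt1 had a mean of 2.72 ± 0.0427 FPKM in IH at ZT4 and 1.38 ± 0.297 in control, and differed by 0.45 ± 0.09 (SE) on the log2 scale over ZT4 and ZT8 (adjusted p = 0.0222). Gmnn, geminin, which inhibits CDT1, had 5.7 ± 0.717 and 3.13 ± 0.556 FPKM at ZT4 and differed by 0.45 ± 0.10 (adjusted p = 0.0276). Among the others higher were Lig1 by 0.28, Lin52 by 0.27, Pold4 by 0.24, Orc5 by 0.225 and Anapc11 by 0.20, and E2f6, a repressor of the E2F family, was lower, with a difference of -0.22. At ZT4 alone 4 were called (2.99%, beside 1.16% of all genes). Cdt1 and Mad2l1 were among the genes higher, and Btg2, an antiproliferative gene, was lower at 2.17 ± 0.65 FPKM against 11.2 ± 6.23 (adjusted p = 0.0486).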

How the data were processed

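Liver RNA of 36 mice was sequenced as polyadenylated, strand-marked libraries. The authors deposited 1 table per condition of FPKM values per gene, made with TopHat2 2.1.1 and Cufflinks 2.2.1 per the submitters' processing notes, on the mouse build mm10. Which condition a table held was read from its name. The strand setting of the counting was not given in the sources used here. FPKM carries no counts, so no count model was used.

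Of 24883 rows per table, the 280 symbols on more than 1 row were left out, which left 24066, and the 13215 that averaged 0.1 FPKM or more across all libraries were tested. Values were analysed as log2(FPKM + 1) with limma 3.58.1 in R 4.3.3, with an intensity trend, and fold differences on that scale understate the change of low genes. A 24 h cosine was fitted within each condition and called at a nominal P of 0.01, in place of the study's BIO_CYCLE, which was not used here. Differences of cosine and of level (over all time points with time as a factor, over the 12 libraries of ZT4 and ZT8, and at each time point with 1 spread for all groups) were called at a Benjamini-Hochberg adjusted p of 0.05 over all genes tested. The P-values rest on the spread between mice. In the cosine fits and the tests of level over several time points, that spread also holds departures from the fitted model. The F test of time and the tests at each time point do not include such departures. The scripts were tested on simulated data. Figures were drawn with matplotlib 3.10.9.

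The 35 genes and the wider lists were chosen with earlier results of these data known. Values per library are printed for genes past a threshold in any test and for the most abundant gene of each role. Of the wider lists, those named passed a comparison of conditions or had 1 of the 3 smallest rhythm P of their list. A gene that the rule would name is not reported here. Alternatives covered the pseudocount, the filter, scaling, the rhythm test, the replicate block and each library left out. Leaving out libraries with Saa1 above 10000 FPKM was chosen after seeing the data.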

Additional observations from a re-analysis of the deposited data

How the results depend on the processing

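The differences called for Rrm2 and Pcna stayed higher in IH under all alternatives run, and direction was followed for these called differences only. Which genes were called changed with the setting, as given here and with each gene. With a filter at a mean of 1 FPKM, 5 genes had a rhythm call in control and 8 in IH, since fewer genes were tested. With a nominal P of 0.01 in place of the adjusted p, the differences between IH and control numbered 4 over all time points (Mcm2, Mcm5, Pcna and Rrm2), 2 at ZT0, 2 at ZT4, 3 at ZT12, 1 at ZT16, 1 at ZT20 and 7 at any time point. The share of all genes at this nominal limit was not taken, so these counts are not a result about the list. With the spread of all 36 libraries 1 gene was called at ZT4 and ZT8 together, Rrm2. With the 6 libraries of ZT4 alone 2 were called there, and 2 at any time point, Rrm2 and Wee1 (0.58 on the log2 scale, adjusted p = 0.0369). Without the libraries with Saa1 above 10000 FPKM, an alternative chosen after seeing the data, 2 were called over all time points (Mcm5 and Rrm2), 2 at ZT4 (Cdkn1a and Rrm2) and 2 at any time point. The share of all genes called under the alternatives of this paragraph was not taken. The cause of these changes was not tested.

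With 1 library left out in turn, the genes called rhythmic numbered 8 to 12 in control and 14 to 18 in IH. Those different in level numbered 1 to 2 over all time points, 1 to 5 at ZT4 and ZT8 together, 0 to 2 at ZT4, 0 to 7 at ZT12 and 0 to 8 at any time point. The 5 came without control ZT8 replicate 3 (Birc5, Cdkn1b, Pcna, Rrm2 and Wee1). The 7 came without control ZT12 replicate 3 (Birc5, Ccna2, Ccnd3, Ccne2, Cdc20, Mcm3 and Mcm5), and 2 (Ccnd3 and Mcm5) without control ZT12 replicate 1. Both runs kept control ZT12 replicate 2, the library that stood apart. It held the highest value of all libraries for Birc5, Ccna2, Cdc20 and Mcm5 and the lowest for Ccnd3. The share of all genes called in these runs was not taken. Same-numbered libraries had residual correlations from -0.179 to 0.294, over 0.1 in 6 of 18. The labels do not say whether replicate numbers pair the mice, and these correlations cannot decide it. With the replicate block the counts were 9 rhythmic in control, 16 in IH, 1 different over all time points, 2 at ZT4 and ZT8 and 1 at ZT4. No share of all genes was taken for these counts.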
